A study of Rattus norvegicus with 6 samples.

Results

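The let-7 family of the rat heart was followed on 10 miRNA probes, the 5p arms rno-let-7a-5p, rno-let-7b-5p, rno-let-7c-5p, rno-let-7d-5p, rno-let-7e-5p, rno-let-7f-5p, rno-let-7g-5p and rno-let-7i-5p, with rno-miR-98-5p and rno-miR-352. They were chosen by name, not by their values, and are 10 of the 761 miRNAs on the array. Hearts came from adult male Sprague Dawley rats, snap-frozen and pulverized. The 3 DSS rats (animals 13, 14 and 16) drank 3% dextran sodium sulfate (DSS), an agent that inflames the colon, in 4 cycles of 5 days with 9 days of plain water between them, over 8 weeks in all. The 3 control rats (animals 9, 10 and 11) received no DSS. Each heart was hybridized in 1 color (Cy5) to an array of its own. The RNA is that of all cells of the heart, so fewer cells of a type and less RNA per cell cannot be told apart.

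The let-7 miRNAs are among the most conserved small RNAs of animals. They lower the output of their target mRNAs, among them Ras and Hmga2, through a short seed near the 5′ end, and their maturation is blocked by the stem-cell protein LIN28, so that they rise as tissues differentiate and are abundant in adult muscle. Members differ from each other mainly behind the seed, and miR-98 carries the same seed under another name.

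The mature sequences that the probes target are shown because the comparisons below turn on how few bases separate the members. Capitals mark the seed, bases 2 to 8 counted from the 5′ end. The sequences are those listed with the array, and 9 of them were identical to the RefSeq sequences of the rat assembly GRCr8. The first 9 share 1 seed.
let-7a-5p: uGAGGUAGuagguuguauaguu
let-7b-5p: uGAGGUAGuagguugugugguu
let-7c-5p: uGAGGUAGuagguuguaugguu
let-7d-5p: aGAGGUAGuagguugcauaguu
let-7e-5p: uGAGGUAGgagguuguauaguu
let-7f-5p: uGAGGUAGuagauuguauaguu
let-7g-5p: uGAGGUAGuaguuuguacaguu
let-7i-5p: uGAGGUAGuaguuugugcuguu
miR-98-5p: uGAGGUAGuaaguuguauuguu
The last has another seed.
miR-352: aGAGUAGUagguugcauagua

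Written as substitutions from let-7a-5p (let-7a base, position from the 5′ end, other member's base), let-7c carried A19G, let-7e U9G and let-7f G12A. The members with 2 substitutions were let-7b (A17G, A19G), let-7d (U1A, U16C), let-7g (G12U, U18C) and miR-98 (G11A, A19U). The most distant member of the same length was let-7i (G12U, A17G, U18C, A19U). miR-352 is 1 base shorter, was 4 edits (substitutions, insertions or deletions) from let-7a and came closest to let-7d, at 2 edits. No other miRNA target on the array held the let-7 seed at bases 2 to 8, and the nearest other target was 8 edits from any member. The array carries no mismatched versions of the 10 probes, so how much of a member's signal came from a near-identical member was not tested.

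In GRCr8 the members come from several loci. Mirlet7a1, Mirlet7f-1os and Mirlet7d lie within 2150 bases of each other on chromosome 17 (16320145 to 16322294), inside the lncRNA gene LOC120097935. Mirlet7c2 and Mirlet7b lie within 430 bases on chromosome 7 (118683636 to 118684065). Mirlet7f2 and Mir98 lie within 633 bases on chromosome X (24460052 to 24460684), inside Huwe1. Mirlet7e lies between Mir99b and Mir125a on chromosome 1 (67350243 to 67350264), inside Spaca6. Other copies are Mirlet7c1 on chromosome 11 (29688127 to 29688148, inside the lncRNA gene LOC103693508) and Mirlet7a-2 on chromosome 8 (50805219 to 50805240, inside the lncRNA gene Lnc215). Mirlet7g (chromosome 8, 115701026 to 115701047, within Wdr82 and Rpl29 as annotated) and Mirlet7i (chromosome 7, 60527935 to 60527956, within LOC134479799) each stand without another let-7 gene beside them. Exons and introns were not given in the annotation used here. Because let-7a, let-7c and let-7f each arise from more than 1 gene with the same mature product, their probes sum those genes.

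The 6 arrays detected 283, 223 and 255 miRNAs in control hearts and 365, 256 and 239 in DSS hearts, and 282 miRNAs detected on at least 3 arrays were tested. Empty spots were brighter on control replicate 10 and DSS replicates 14 and 16 than on the other 3. The spike-in probes, which read RNA added to each sample, fell with the groups. Their mean log2 brightness was 10.69, 10.86 and 10.94 on control replicates 9, 10 and 11. It was 10.49, 9.44 and 9.71 on DSS replicates 13, 14 and 16. The 5S rRNA probes fell from 13.23 to 13.56 in control to 12.86 to 13.14 in DSS. Of 6 heart muscle markers, miR-1-3p, miR-133a-3p, miR-133b-3p and miR-499-5p were detected on all 6 arrays, miR-208a-3p on 1 and miR-208b-3p on none. The liver marker miR-122-5p was detected on 1 array and the brain marker miR-124-3p on none, while the brain marker miR-9a-5p was detected on 4. Of 6 markers of epithelium and gut, miR-192-5p was detected on all 6 arrays, miR-215 on 4, miR-200b-3p on 3, miR-200c-3p on 1, and miR-200a-3p and miR-141-3p on none.

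All 10 members were higher in DSS than in control hearts (limma, adjusted p under 0.05 over the 282 miRNAs tested), where 20.9% of all miRNAs tested were called higher. For all 10 the 3 DSS arrays lay above the 3 control arrays, which was so for 31.6% of the miRNAs tested. The change ran from 2.84-fold (let-7g) to 12.2-fold (miR-352), and its median was 3.06 on the log2 scale against -0.06 over all miRNAs tested. The let-7 probes share near-identical targets and are not 10 independent measurements. Signals are given below as log2 brightness after background correction and normalization, where 1 unit is a doubling. For each member the values are those of control replicates 9, 10 and 11 and then of DSS replicates 13, 14 and 16.

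**Figure D1:**
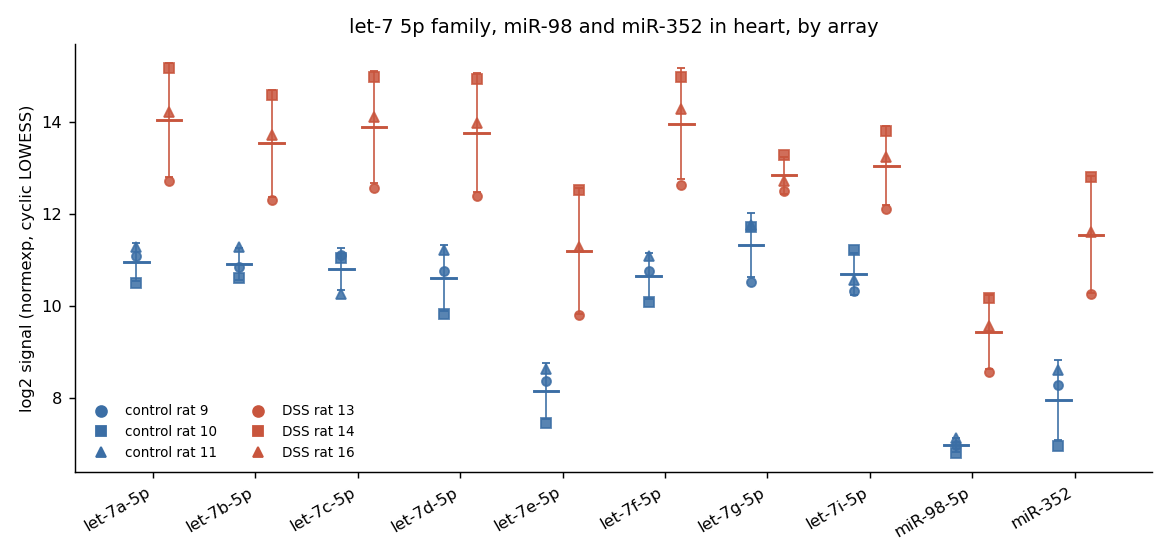
Log2 signal (y axis, normexp and cyclic LOWESS) of the 10 members (x axis) on each of the 6 arrays, 3 control (blue) and 3 DSS (red), with the group mean (horizontal line) and SD (error bar, n = 3). Every DSS point lies above every control point of the same member, with the narrowest gap for let-7g-5p (11.75 for the highest control array and 12.50 for the lowest DSS array).

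The members with the sequence closest to let-7a were considered first. let-7a-5p, the sequence the family is named for, read 11.08, 10.49 and 11.28 in control and 12.71, 15.17 and 14.20 in DSS. DSS replicate 13 was the lowest DSS array and replicate 14 the highest, and the gap between them was wider than that among the controls. The log2 change was 3.07 (SE 0.60, adjusted p = 0.0151). let-7c-5p read 11.09, 11.04 and 10.26 in control and 12.57, 14.97 and 14.10 in DSS, a change of 3.08 (SE 0.60, adjusted p = 0.0151). Its low value on control replicate 11 came from 1 of 4 spots, which read 98.5 where the other 3 read 3557 to 4426 before background correction, and with the median of the 4 spots the change was 2.74. let-7f-5p, known for promoting vessel growth in endothelial cells, read 10.75, 10.09 and 11.07 in control and 12.63, 14.96 and 14.28 in DSS, a change of 3.32 (SE 0.60, adjusted p = 0.0151). let-7e-5p was dimmer, at 8.37, 7.46 and 8.62 in control and 9.79, 12.53 and 11.27 in DSS, a change of 3.05 (SE 0.68, adjusted p = 0.0170). These 4 members thus changed by 3.05 to 3.32, and in each of them DSS replicate 14 was the highest array and replicate 13 the lowest of the DSS group.

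let-7b-5p and let-7d-5p differ from let-7a by 2 bases each. let-7b-5p read 10.84, 10.59 and 11.28 in control and 12.29, 14.58 and 13.72 in DSS, a change of 2.63 (SE 0.56, adjusted p = 0.0161). let-7d-5p read 10.76, 9.83 and 11.22 in control and 12.38, 14.94 and 13.96 in DSS, a change of 3.16 (SE 0.67, adjusted p = 0.0161). Both kept the order of DSS arrays seen for let-7a, and control replicate 10 was the lowest array for both. The paper's RT-qPCR of Let-7d (arm not named), in more rats of this model, gave a smaller increase than this array. miR-352 and miR-98 were the members that were not detected in every control heart. miR-352 read 8.27, 6.96 and 8.60 in control and 10.25, 12.80 and 11.59 in DSS, and its change of 3.61 (SE 0.70, adjusted p = 0.0151) was the largest increase of the 282 miRNAs tested. Without control replicate 10, miR-352 changed by 3.11 and let-7c by 3.20. That let-7c value includes the dim spot of control replicate 11, and the fit was not run with the median of the spots. Whether miR-352 would keep its place there was therefore not tested. miR-98-5p read 6.98, 6.80 and 7.13 in control and 8.56, 10.17 and 9.55 in DSS, a change of 2.46 (SE 0.40, adjusted p = 0.0151). Its size depends on the processing, with 3.83 under plain background subtraction, 3.73 in the authors' processed values and 3.86 under spike-in scaling. Neither miR-98 nor miR-352 was detected on control replicate 10, where 0 of 4 spots passed, and both were detected on the other 5 arrays. The other 8 members passed with 4 of 4 spots on all 6 arrays.

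let-7g-5p and let-7i-5p, which share the substitutions G12U and U18C, had the smallest changes among the let-7 members proper with all 6 arrays, but without control replicate 10 let-7b changed by 2.47 and let-7i by 2.60. let-7g-5p read 10.52, 11.71 and 11.75 in control and 12.50, 13.27 and 12.72 in DSS, a change of 1.51 (SE 0.39, adjusted p = 0.0213). It lost its call with no normalization (1.23, adjusted p = 0.0659) and with scaling to the 75th percentile over all probes (0.86, adjusted p = 0.0722). Its control arrays spread more than its DSS arrays, unlike those of let-7a. let-7i-5p, known to act on Toll-like receptor 4, read 10.32, 11.21 and 10.56 in control and 12.11, 13.79 and 13.22 in DSS, a change of 2.34 (SE 0.46, adjusted p = 0.0151). Unlike let-7a, let-7b, let-7d, let-7e, let-7f, miR-98 and miR-352, which were lowest on control replicate 10, let-7i was highest there among the controls. Set against let-7a on the same array, let-7g stood at -0.56, 1.21 and 0.47 in control and at -0.21, -1.89 and -1.48 in DSS (log2 ratio). The groups overlapped, with DSS replicate 13 above control replicate 9, and the smaller change of let-7g, by 1.57 on the log2 scale, did not pass an exact 2-sided permutation test (p = 0.2, with 0.1 the smallest value possible for 2 groups of 3 arrays). The corresponding difference for let-7i was 0.73 (exact permutation test, p = 0.3).

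The calls rest on few arrays. Without DSS replicate 16, 0 of the 10 members and 0 of all miRNAs passed limma after adjustment (smallest adjusted p = 0.0614), while all 10 kept an unadjusted p under 0.05 and changes of 1.56 to 3.58. The methods' t-test likewise called 0 of 10 after adjustment and 10 of 10 before it. Without DSS replicate 14, 9 of 10 were called, let-7g being lost, and without DSS replicate 13, the DSS array with the lowest members, changes rose to between 1.67 and 4.25. No member turned its direction in any alternative. Leaving out an array could not turn one, since every DSS array lay above every control array, so those fits are no check of direction.

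Because the spike-in and 5S rRNA probes fell with the groups, the scaling bears on the size of the change. Scaled to the spike-in probes, the members rose by 2.18 to 4.57, with the median of all miRNAs tested at 1.31. Scaled to the 5S rRNA probes, they rose by 1.65 to 4.04, with that median at 0.78. Relative to the median miRNA the change was 0.87 to 3.26 under both. It must be the same, since each scaling shifts all miRNAs of an array alike, so this is no check. With cyclic LOWESS it was 1.57 to 3.67. Among the DSS arrays, the spike-in probes were lowest on replicate 14, where every member's normalized signal was highest. They were highest on replicate 13, where every member was lowest. The part of spike-in, 5S rRNA or other array differences in the members' change was not tested.

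The share of the family in all miRNA brightness was higher on each DSS array than on each control array. The 10 members made up 2.86%, 3.68% and 4.58% of the background-corrected brightness of all 761 miRNAs in control hearts and 11.2%, 26.7% and 19.96% in DSS hearts. Within the family, a member's share is its brightness divided by that of all 10 on the same array, so that any factor common to an array cancels. Probes bind with different strength, and a share or an order of brightness is not one of molecules.

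let-7f-5p had the largest difference in share toward DSS. It held 13.4%, 8.39% and 12.3% of family brightness in control and 15.0%, 16.2% and 18.3% in DSS, a mean of 11.4% ± 2.64 (SD, n = 3) against 16.5% ± 1.64 (SD, n = 3). The groups did not overlap, and the 2-sided exact permutation test gave p = 0.1, the smallest it can give. The dim members also had higher shares in DSS hearts without overlap. let-7e-5p went from 1.52% ± 0.674 to 2.59% ± 0.559 (SD, n = 3 each, exact permutation test, p = 0.1). miR-352 went from 1.36% ± 0.804 to 3.29% ± 0.478 (SD, n = 3 each, exact permutation test, p = 0.1). miR-98-5p went from 0.334% ± 0.0975 to 0.814% ± 0.0727 (SD, n = 3 each, exact permutation test, p = 0.1). The shares of 4 of 10 members thus did not overlap between groups, all 4 higher in DSS. Shares within an array are parts of the same sum, so the members are not independent, and no such count was made for other miRNAs. let-7f alone kept its lack of overlap under every alternative run, but leaving out an array cannot undo it, so those fits are no check. On cyclic LOWESS normalized values the count was 2 (let-7f and miR-352), and in the authors' processed values the 4 were let-7a, let-7d, let-7f and miR-98. Without DSS replicate 13 it was 7, with let-7a, let-7d and let-7g added.

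let-7g-5p had the largest difference in the other direction and also the widest spread. It held 11.3%, 25.7% and 19.7% in control and 13.7%, 5.04% and 6.43% in DSS, a mean of 18.9% ± 7.26 against 8.41% ± 4.68 (SD, n = 3 each). DSS replicate 13 lay above control replicate 9, so the groups overlapped (exact permutation test, p = 0.2). let-7i-5p held 9.64%, 17.7% and 8.47% in control and 10.4%, 7.29% and 8.88% in DSS, also with overlap (exact permutation test, p = 0.5). Together let-7g and let-7i made up 20.9%, 43.4% and 28.2% of the family in control hearts and 24.2%, 12.3% and 15.3% in DSS hearts. Control replicate 10 had the highest combined share and DSS replicate 14 the lowest.

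The bright members let-7a, let-7b, let-7c and let-7d overlapped between the groups. let-7a-5p went from 14.4% ± 2.81 to 17.2% ± 1.37 (SD, n = 3 each, exact permutation test, p = 0.2). let-7d-5p went from 11.3% ± 3.83 to 14.4% ± 1.68 (SD, n = 3 each, exact permutation test, p = 0.3). let-7b-5p went from 13.4% ± 1.32 to 12.2% ± 0.287 (SD, n = 3 each, exact permutation test, p = 0.4). The mean of let-7c-5p was 15.5% ± 2.34 in control and 15.6% ± 1.02 in DSS (SD, n = 3 each, exact permutation test, p = 1). The control mean of let-7c includes the dim spot of control replicate 11. With the median of the spots, the let-7c share differed by -0.67 percentage points, DSS minus control. With only 20 arrangements of 6 arrays, these p-values do not show that the shares were alike.

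**Figure D2:**
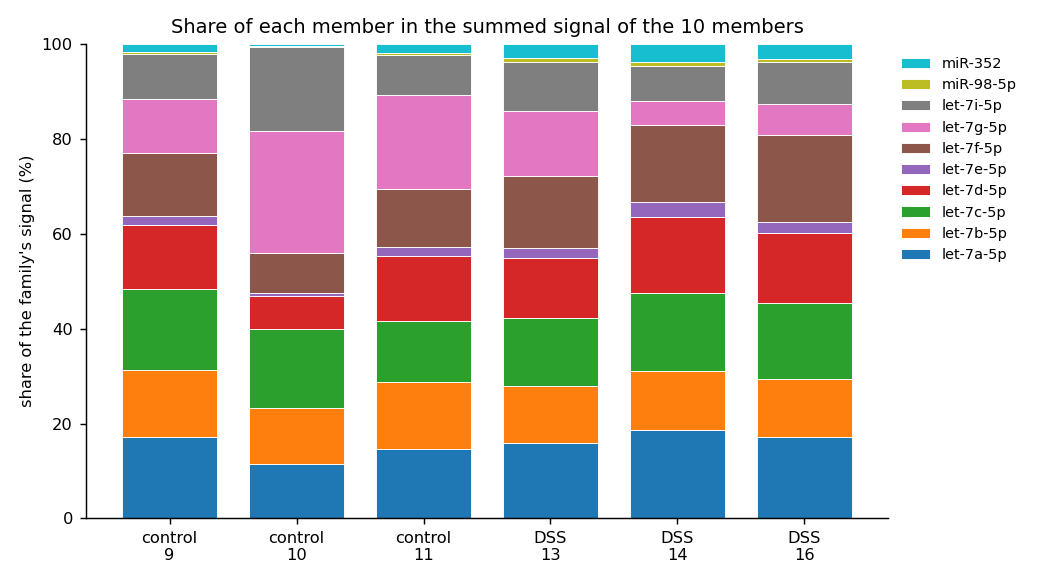
Share of each of the 10 members in their summed background-corrected brightness (y axis, %) on each of the 6 arrays (x axis, 3 control and 3 DSS). The share of let-7f-5p is 8.39% to 13.4% in control and 15.0% to 18.3% in DSS, while let-7g-5p runs from 11.3% to 25.7% in control and from 5.04% to 13.7% in DSS.

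The order of the members by brightness fell into 2 tiers. On all 6 arrays let-7e, miR-352 and miR-98 took ranks 8 to 10, below the other 7, and miR-98 was last on each. Among control hearts the highest member was let-7c on replicate 9 and let-7g on replicates 10 and 11. Among DSS hearts it was let-7a on replicates 13 and 14 and let-7f on replicate 16. let-7g stood 6th, 1st and 1st in control and 4th, 7th and 7th in DSS, and its ranks overlapped between the groups. let-7f stood 4th, 6th and 6th in control and 2nd, 3rd and 1st in DSS, without overlap. let-7c stood 1st, 3rd and 5th in control and 3rd, 2nd and 3rd in DSS, and its 5th place on control replicate 11, the array with the dim spot, became 3rd with the median of the spots.

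Of the 45 pairs of members, 24 had the same order on all 6 arrays, and 23 of those set a member of the lower tier below another member. The remaining pair was let-7a above let-7d. In 3 pairs all control arrays gave 1 order and all DSS arrays the other, with let-7b above let-7d and let-7f in control and below both in DSS, and let-7e above miR-352 in control and below it in DSS. Without control replicate 9 there were 6 such pairs, and no such count was made for other miRNAs. The control order of let-7e and miR-352 rests on close values, 236 and 219 on replicate 9 and 445 and 437 on replicate 11. On control replicate 10 they read 115 and 67, and miR-352 was not detected. Rank correlations of the order between arrays (Spearman's rho over the 10 members, a description, since the members share probes and arrays) were 0.92 to 0.96 among the DSS arrays, 0.56 to 0.72 among the control arrays and 0.41 to 0.93 between the groups. The control hearts thus differed more from each other in the order of the upper tier than the DSS hearts did. Neighbours within the upper tier had mean log2 signals closer than their SDs between arrays. Those SDs do not measure the spread of an order taken within an array. In control the mean log2 signals of these 7 ran from 10.60 (let-7d) to 11.33 (let-7g), with SDs of 0.35 to 0.71, and in DSS from 12.83 (let-7g) to 14.03 (let-7a), with SDs of 0.40 to 1.29.

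**Figure D3:**
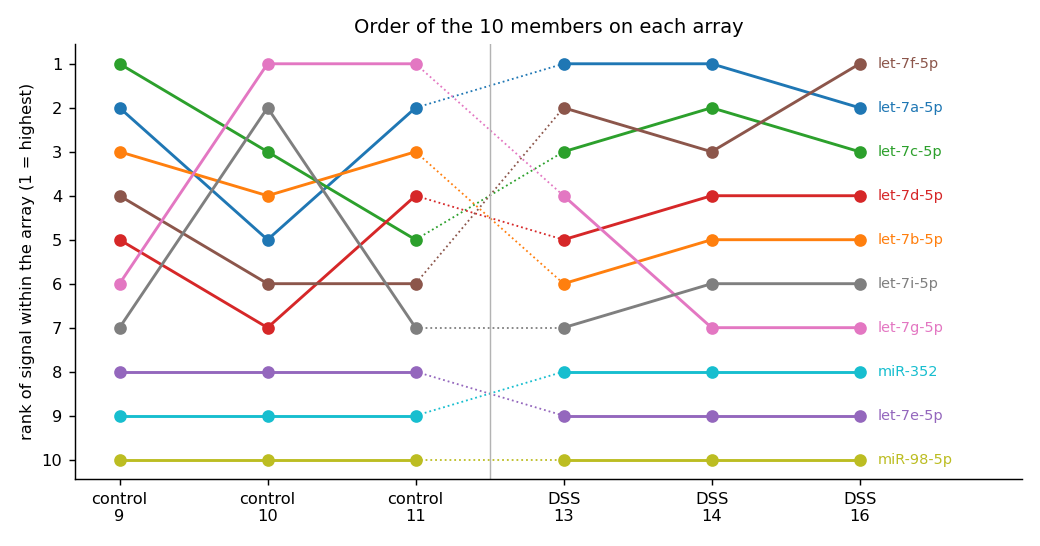
Rank of each member's background-corrected brightness within each array (y axis, 1 = highest) for the 3 control and 3 DSS arrays (x axis). Lines only link the points of a member, and dotted lines cross between the groups. let-7g-5p stands 1st on 2 control arrays and 7th on 2 DSS arrays, and let-7e-5p and miR-352 exchange ranks 8 and 9. Their brightness was close on control replicates 9 and 11.

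Whether the change follows sequence was then examined over the 45 pairs. The absolute difference of the log2 changes of a pair had a median of 0.14 for the 4 pairs 1 edit apart, 0.45 for the 11 pairs at 2 edits, 0.42 for the 11 at 3, 0.73 for the 10 at 4, 0.54 for the 4 at 5 and 1.06 for the 4 at 6. The pair at 8 edits, let-7i and miR-352, differed by 1.26. Spearman's rho of that difference with the number of edits was 0.46 over the 45 pairs, and 0.54 over the 28 pairs without let-7g or let-7i. With the predicted loss of duplex energy of 1 member on the other's probe in place of edits, rho was 0.54, and with substitutions over the 36 pairs of equal length 0.41. Pairs share members, probes and arrays, so no p is given. Without control replicate 10 rho was -0.01, and with each other array left out it was 0.41 to 0.54, so the relation was absent only without that control heart. In that fit the dim let-7c spot of control replicate 11 weighed more, and it was not run with the median of the spots. The part of that spot in the loss was not tested. On control replicate 10 let-7g and let-7i stood high, and let-7a, let-7b, let-7d, let-7e, let-7f, miR-98 and miR-352 were lower than in the other controls. Without it, for example, miR-352 changed by 3.11, let-7i by 2.60 and let-7g by 1.70.

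Single pairs show how far sequence and change went apart. let-7a and let-7e, 1 base apart, differed by 0.03 in log2 change. let-7a and let-7c, also 1 base apart, differed by 0.01, but that rests on the dim let-7c spot of control replicate 11, since with the median of the spots they changed by 3.03 and 2.74 and in the authors' processed values by 3.13 and 2.73. let-7f and let-7g, 2 substitutions apart (A12U, U18C), differed by 1.82. let-7i and miR-98, 4 substitutions apart, differed by 0.11, but changed by 2.13 and 3.83 with plain background subtraction and by 2.35 and 3.73 in the authors' processed values, so that their closeness depends on the background correction. Pairs of let-7g or let-7i with one of the other 8 differed by a median of 1.05 (16 pairs, 2 to 8 edits) against 0.45 among the other 8 (28 pairs, 1 to 6 edits). let-7g and let-7i, which share 2 of their substitutions, differed by 0.84. Spearman's rho of the change itself was -0.20 with the distance from let-7a (9 other members), -0.06 with GC content (10 members) and -0.37 with the control level (10 members), as a description of probes that share arrays.

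**Figure D4:**
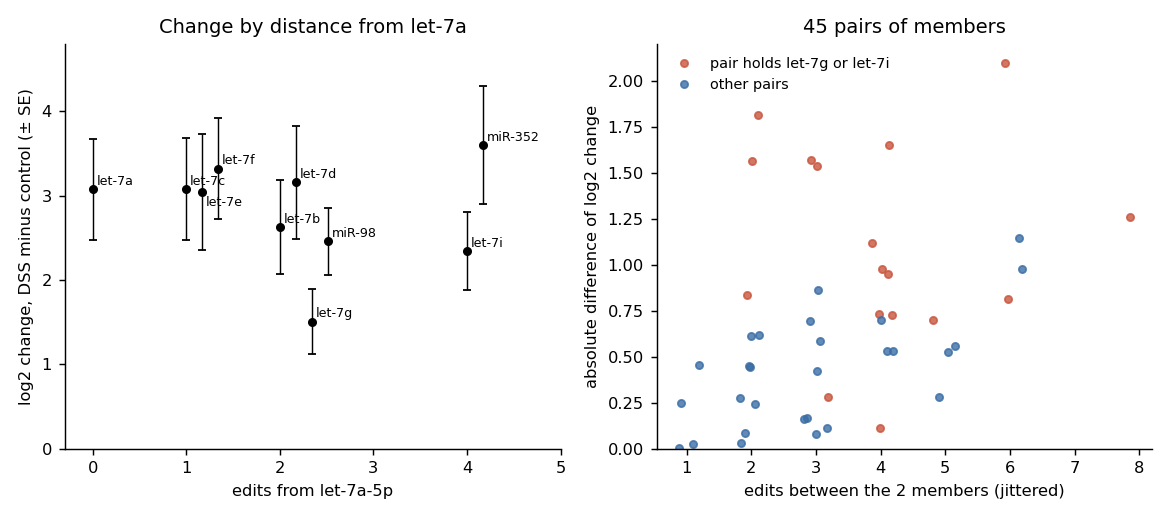
Left, log2 change of each member (y axis, DSS minus control, error bars SE of limma) against its edits from let-7a-5p (x axis, members at the same distance set side by side). Right, absolute difference of log2 change (y axis) against edits between the members (x axis, jittered) for the 45 pairs, with pairs that hold let-7g-5p or let-7i-5p in red. Pairs 1 edit apart differ by a median of 0.14, and the widest difference, 2.10, is between let-7g-5p and miR-352.

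The array also holds probes for the opposite sequence. miR-3596a is the exact reverse complement of let-7a-5p, with the complement of the seed in capitals.
miR-3596a: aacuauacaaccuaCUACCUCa
Its log2 signal was 7.14 in control and 7.82 in DSS, a change of 0.68 (SE 0.16, adjusted p = 0.0173), against 3.07 for let-7a. The related probes miR-3596b (2 edits from the complement of let-7d) and miR-3596c (1 edit from that of let-7e) changed by 0.32 (adjusted p = 0.125) and 0.17 (adjusted p = 0.427), and miR-3596d was detected on too few arrays to be tested.

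The opposite arms of the same precursors, which are usually the strand that is discarded, gave mixed changes beside the 5p arms. Of 11 let-7 and miR-98 3p arms on the array, 5 were tested, and 1 was higher, 1 lower and 3 were not called, with a median change of -0.25. Among all miRNAs tested 20.9% were called higher and 28.4% lower, and counts this small cannot be set apart from those shares. let-7d-3p read 8.35, 9.02 and 9.21 in control and 10.58, 11.39 and 11.03 in DSS, a change of 2.14 (SE 0.31, adjusted p = 0.0151) without overlap. let-7a-1-3p read 8.60, 9.29 and 9.37 in control and 8.57, 7.59 and 7.60 in DSS. All its DSS arrays lay below its control arrays, as for 34.8% of the miRNAs tested, though DSS replicate 13 lay close to control replicate 9. It fell by 1.17 (SE 0.35, adjusted p = 0.0314), and under spike-in scaling its change was 0.15 (adjusted p = 0.748), where the median of all miRNAs stood at 1.31. It has the same mature sequence as let-7c-2-3p, so its signal belongs to both. The 2 called arms differ in bases 2 to 8, shown in capitals.
let-7a-1-3p: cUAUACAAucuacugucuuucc
let-7d-3p: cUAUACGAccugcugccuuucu
The values for let-7b-3p (0.30, adjusted p = 0.165), let-7f-1-3p (-0.25, adjusted p = 0.394) and miR-98-3p (-0.57, adjusted p = 0.131) did not pass. The 5p over 3p log2 ratio within an array was higher in DSS by 4.24 for let-7a with let-7a-1-3p, by 3.57 for let-7f with let-7f-1-3p and by 2.32 for let-7b, each without overlap between groups (exact permutation test, p = 0.1 each, the smallest possible). For let-7d, whose arms were both higher, it differed by 1.01 with overlap (exact permutation test, p = 0.3).

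The miRNAs whose genes lie beside let-7 genes did not move in 1 direction. miR-99a, miR-99b and miR-100 share a seed and are known to act on Mtor, and miR-125a and miR-125b are the mammalian relatives of worm lin-4. Of 11 partner arms, 7 were tested, with 1 called higher, 3 called lower and a median change of -0.39. Among all miRNAs tested 20.9% were called higher and 28.4% lower, so these counts lie near the background. miR-99a-5p, from the cluster of Mirlet7c1, read 12.64, 11.69 and 11.96 in control and 10.52, 9.37 and 9.54 in DSS, a fall without overlap. Its change was -2.29 (SE 0.38, adjusted p = 0.0151). miR-100-5p, from the cluster of Mirlet7a-2, read 11.97, 10.93 and 11.52 in control and 10.24, 9.21 and 9.34 in DSS, also without overlap, and its change was -1.87 (SE 0.37, adjusted p = 0.0151). Both stayed lower under every scaling run, with the smallest falls under spike-in scaling (-1.49 and -1.04). miR-125b-2-3p, detected on 3 control arrays and 1 DSS array, changed by -0.69 (SE 0.20, adjusted p = 0.0288), but by 0.79 under spike-in scaling and 0.27 under 5S rRNA scaling, both without a call. miR-125b-5p, from the clusters of both, changed by -0.22 (adjusted p = 0.370).

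The compact cluster on chromosome 1 gave a mixed pattern. There let-7e-5p changed by 3.05, miR-125a-5p by 1.21 (SE 0.38, adjusted p = 0.0356), miR-99b-3p by 0.50 (adjusted p = 0.0741) and miR-99b-5p by -0.39 (adjusted p = 0.116). The call for miR-125a-5p was lost in most alternatives, among them the authors' processed values (adjusted p = 0.0813) and the omission of any array but control replicate 11. Within arrays, let-7e over miR-99b-5p stood at -1.80, -2.82 and -1.88 in control and -0.31, 2.63 and 1.48 in DSS (log2 ratio), a difference of 3.43 without overlap (exact permutation test, p = 0.1). let-7e over miR-125a-5p was higher in DSS by 1.84 with overlap (exact permutation test, p = 0.2). The ratio of let-7c to miR-99a-5p was higher in DSS by 5.37 and that of let-7a to miR-100-5p by 4.95, both without overlap (exact permutation test, p = 0.1 each). let-7a and let-7c also have other genes outside these clusters.

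**Figure D5:**
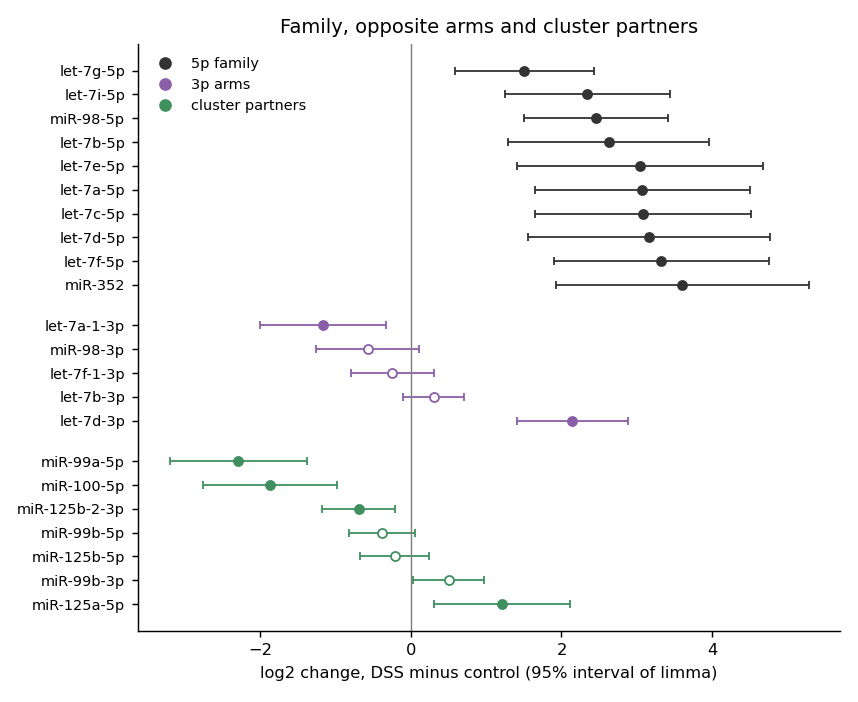
Log2 change (x axis, DSS minus control, points, with the 95% confidence interval of limma) of the 10 members, the 5 tested 3p arms and the 7 tested cluster partners (y axis). Filled points passed an adjusted p of 0.05. All 10 members lie right of 0, while the other arms and partners lie on both sides, from -2.29 (miR-99a-5p) to 2.14 (let-7d-3p).

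The miRNAs whose pattern was most like the family's were sought among the other 272 tested. Over the 6 arrays, Pearson's r with the mean log2 signal of the members was 0.997 for miR-1-3p, a muscle miRNA, 0.995 for miR-483-5p, miR-1896 and miR-206-3p, and 0.986 for miR-328a-5p. miR-206-3p shares its seed with miR-1-3p. After removal of the group means it was 0.996 for miR-3584-5p, 0.991 for miR-1896, 0.981 for miR-1-3p, 0.976 for miR-483-5p and 0.975 for miR-206-3p, so these probes also followed the family from array to array within a group. miR-1-3p read 11.85, 11.50 and 12.21 in control and 13.59, 15.91 and 15.41 in DSS, and its change of 3.11 (SE 0.59, adjusted p = 0.0151) stood beside 3.07 for let-7a. The other 5 changed by 1.18 to 2.09. Each member was also set against the mean of the other 9, group means removed, and r was 0.39 for let-7g, 0.73 for let-7i and 0.79 for let-7c against 0.91 to 1.00 for the remaining 7. The value for let-7c includes the dim spot of control replicate 11, and r was not computed with the median of the spots. These values describe 6 arrays that share their normalization.

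Markers of other cells moved in both directions beside the family. Of 5 leukocyte markers, miR-150-5p was higher in DSS hearts (1.59, adjusted p = 0.0201), miR-223-3p was lower (-1.35, adjusted p = 0.0299), and miR-142-3p and miR-142-5p were detected on 1 array each. miR-155-5p was detected on 0 of 3 control and 3 of 3 DSS arrays, so that it passed the detection filter through the DSS group alone, and no change is given. Of 4 erythroid markers, miR-486 was higher (2.36, adjusted p = 0.0151), miR-451-5p (-2.53, adjusted p = 0.0161) and miR-144-5p (-0.94, adjusted p = 0.0224, detected on 3 arrays) were lower, and miR-144-3p was detected on no array. The heart muscle markers also divided, with miR-499-5p lower (-2.09, adjusted p = 0.0213) where miR-1-3p was higher, and values of -0.67 (adjusted p = 0.0527) for miR-133a-3p and -0.34 (adjusted p = 0.294) for miR-133b-3p. Of the epithelium and gut markers, miR-192-5p was lower (-1.37, adjusted p = 0.0153), miR-200b-3p was detected on 0 of 3 control and 3 of 3 DSS arrays, for which no change is given, miR-215 was not called (0.22, adjusted p = 0.343), and the brain marker miR-9a-5p was not called (-0.60, adjusted p = 0.304). The part of the cells present in the members' change was not tested.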

How the data were processed

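Heart RNA of 6 rats was measured on 6 arrays, grouped by the labels. The authors deposited, per the file headers, the median intensity of each spot with background included and the SD of its pixels, and a table of processed intensity values made by background subtraction and a LOWESS filter, used here as an alternative. Intensities were corrected with normexp (offset 50), averaged on the log2 scale over 4 spots per probe, and normalized by cyclic LOWESS (span 0.7, 3 iterations) over 761 miRNA probes, with R 4.3.3 and limma 3.58.1. A spot passed at over 3 SD of the 632 empty spots above background, read from the dimmest 25% of miRNA spots as their median, and with its own CV under 0.5, a miRNA was detected with at least 2 passing spots, and the 479 detected on under 3 arrays were left out. The number of arrays limits the precision. The brightest spot of a member read 28909.

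Groups were compared with limma (lmFit, eBayes), with Benjamini-Hochberg adjustment over 282 miRNAs and a threshold of 0.05, and shares and ratios with 2-sided exact permutation tests over 20 arrangements. The tests set the group difference against the spread between arrays. Each rat had its own array, so differences between rats and between arrays cannot be told apart. Shares used brightness before normalization with the offset subtracted. Edits are Levenshtein distances, and duplex energies came from RNAduplex (ViennaRNA 2.7.2). Figures were made with matplotlib 3.10.9. The text names the 10 members, the tested 3p arms and cluster partners, the 5 miRNAs most like the members by each of 2 correlations, and lists of heart muscle, leukocyte, erythroid, epithelium and gut, liver and brain markers. The miR-3596 probes were named after their values were seen. The members, lists and tests were chosen with earlier results of these data known. The pipeline was tested on simulated data. Alternatives covered the background, normalization, authors' values, filter, spot summary, test, members, distance and each array left out.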

Additional observations from a re-analysis of the deposited data

How the results depend on the processing

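All 10 members kept their direction in every alternative, in 218 comparisons of which 191 kept their side of the threshold and 27 lost the call. Many of these could not have turned a direction. Every DSS array lay above every control array, so leaving out an array cannot reverse a member. The t-test and the alternatives of the filter reused the same log2 changes. Only the calls were open in those comparisons. Of the 10 calls, 9 were left with no normalization and 9 with the 75th percentile over all probes (let-7g lost in both), 6 with all miRNA probes tested and 0 in the methods' t-test, and 0 to 10 with 1 array left out (0 without DSS replicate 16). Of the 3p arms (2 called), 1 was called with no normalization, 1 with the 75th percentile over all probes, 0 in the t-test and 0 to 2 with 1 array left out. Of the cluster partners (4 called), it was 2 with the 75th percentile over detected probes, 2 with all miRNA probes, 0 in the t-test and 0 to 4 with 1 array left out. The rank correlation of change with edits (0.46) ran from -0.0122 (without control replicate 10) to 0.54 with 1 array left out. The members whose shares do not overlap (4) were 2 on cyclic LOWESS values and 4 to 7 with 1 array left out, and the pairs that switch order (3) were 3 to 6. Leaving out an array can only keep or raise either count. The mean change of the 9 members that share the seed, 2.74, ran from 2.19 (75th percentile over all probes) to 3.51 (spike-in scaling). In the fits without a control or DSS array, a group held 2 arrays. The cause of these differences was not tested. With all probes, the number of tests and the set of probes that limma was fitted on changed together. Over all miRNAs, 0 were called by the t-test, with 155 at an unadjusted p under 0.05, and 0 without DSS replicate 16, with 129 unadjusted. Calls over all miRNAs also moved, from 59 higher and 80 lower to 168 and 10 under spike-in scaling, 129 and 14 under 5S rRNA scaling and 81 and 38 with no normalization. A block for slide or scan was not run because the files name neither. No paired analysis was possible because control and DSS rats have different numbers.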
